A study of Mus musculus with 6 samples.

Results

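DNA repair transcripts were examined in ovulated, unfertilized mouse eggs arrested at metaphase II (MII), as 49 genes named for mismatch, excision, end-joining and recombination repair, all found by symbol among the 24062 genes counted. Of these, 6 act in mismatch repair, 12 in nucleotide excision repair, 8 in base excision and single-strand break repair, 5 in end joining and 10 in homologous recombination. The last 8 are 4 checkpoint kinases of the damage response and 4 genes of the Fanconi anaemia pathway. The eggs came from superovulated 8-week-old females of the line HISRainbow;Figla-iCre, in which a Cre recombinase named for the oocyte gene Figla acts on a multicolour histone transgene. The replacement histone H3.3 was present in 1 of 3 tagged forms in an egg, and eggs were sorted by that colour under a confocal microscope. These were H3.3K27R-mCherry, with lysine replaced by arginine (here K27R), H3.3R26K-eCFP, with arginine replaced by lysine (here R26K), and H3.3-eGFP, the unmutated form (here H3.3). Every form had its own tag, so tag and substitution cannot be told apart, and the labels name no deletion of the egg's own H3.3 genes. Each group had 2 libraries of amplified cDNA, labelled as biological replicates. How many eggs or females went into a library is not given in the sources used here, and the p-values reflect only how far these libraries lie apart.

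A growing oocyte stores messenger RNA and protein, and the MII egg makes almost no new transcripts until after fertilization. Its repair enzymes therefore serve both the egg's own chromosomes and those brought by the sperm, which has little repair of its own. Mismatch repair corrects replication errors, and base excision repair removes single damaged bases. Nucleotide excision repair cuts out bulky lesions, and double-strand breaks are rejoined by end joining or copied from a homologous template. Many stored messages carry short poly(A) tails that are lengthened during maturation, when the protein CPEB binds the cytoplasmic polyadenylation element near the end of the message. The cDNA kit named in the labels primes on poly(A) tails, so a level here reads both abundance and tail, and in pooled eggs fewer contributing eggs and less RNA per egg cannot be told apart.

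The ends of the messages are shown because tail priming starts there. The last 100 bases before the annotated end of the coding transcript chosen for each gene were searched on the transcript strand. Other transcripts of a gene can end elsewhere. The polyadenylation element was written TTTTAT or TTTTAAT. The element was found in 7 of 43 repair genes with a long enough untranslated end (16.3%) and in 21.3% of the tested genes with such an end. The polyadenylation signal AATAAA or ATTAAA was found in the same window in 32 of the 43 (74.4%), against 82.4% of tested genes. Windows of 30 bases (GENCODE M21 transcripts on mm10, 5′ to 3′) are given for 6 of the 7, with the match nearest the end in capitals:
Uvssa, chr5:33419703-33419732, plus strand: ctgtatgatgttTTTTATaagtttttttgt
Ercc5, chr1:44181186-44181215, plus strand: ttttattctcttTTTTATtttcttgagttt
Xpc, chr6:91489327-91489356, minus strand: aggaaagagttcTTTTATaggacctccagg
Ogg1, chr6:113334119-113334148, plus strand: ggaactgtcttgTTTTATcttccctttatt
Brca2, chr5:150569697-150569726, plus strand: ctacaactatcaTTTTATatacaaaataaa
Fancm, chr12:65131980-65132009, plus strand: ctcaattctgaaTTTTATcagctggtgggc
The marked element begins 40 bases before the annotated end in Uvssa and Xpc, 38 in Brca2, 58 in Ogg1, 63 in Ercc5 and 67 in Fancm. The Ercc5 window opens with another TTTTAT, which is left in lower case. A match describes the letters only. The ends used in these eggs were not analysed here.

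The R26K libraries were the deepest, with 39603440 and 33786225 counts, while the K27R libraries had 11557291 and 10803477 and the H3.3 libraries 12748821 and 11452906, so that 3 counts in a library stood for 0.0813 to 0.285 CPM (counts scaled to the library total). All 12 egg markers, among them the zona genes Zp1, Zp2 and Zp3 and the oocyte growth factor Gdf9, had counts in every library, summing to 23658 to 28122 CPM. Of 24 markers of the cumulus and granulosa cells around the egg, 14 and 4 had counts in K27R, 17 and 14 in R26K, and 4 and 11 in H3.3. Summed, they reached 1944 and 1409 CPM in the K27R libraries, 2089 and 2038 CPM in the R26K libraries, and 974 and 1819 CPM in the H3.3 libraries, with Lhcgr, Pgr and Cd44 at 0 throughout. Of 20 genes that mark epithelial, stromal, blood and immune cells, 5 to 7 had counts in each library, summing to 27.1 to 174 CPM, and Ptprc, the haemoglobin genes and Ovgp1 were at 0 in all. The part of such cells in the results below was not tested.

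Detection differed between groups and between libraries of a group, for the repair genes as for all tested genes. At least 1 count was found for 42 and 37 of the 49 genes in K27R, 44 and 46 in R26K, and 34 and 30 in H3.3. These were 85.7% and 75.5% of members in K27R, 89.8% and 93.9% in R26K, and 69.4% and 61.2% in H3.3. Of all tested genes, 90.2% and 66.2% had a count in K27R, 96.9% and 97.0% in R26K, and 67.3% and 65.4% in H3.3. Thinning all libraries to the smallest total changed 1 of the member counts, R26K replicate 1, to 43. Of the 49, 25 had counts in all 6 libraries and 46 passed the expression filter and were tested. Mlh3, a mismatch partner that is needed for meiotic crossovers, had no count in any library. Prkdc, the DNA-dependent protein kinase of end joining, had 410 counts in K27R replicate 2 (38.9 CPM) and none elsewhere, and the helicase gene Ercc2 had 7 counts in all. In H3.3 neither library had a count for 9 of the 46 tested repair genes (19.6%), against 20.7% of all tested genes, so this share was near the background. Members with no H3.3 count but counts elsewhere were richer in G and C, with a median of 52.7% in 11 transcripts against 46.2% in the 25 found in every library. Over all tested genes the medians were 51.7% and 48.1%. Within H3.3, 6 of 33 repair genes that reached 10 CPM in 1 library had no count in the other, namely Ercc1, Xpc, Rad51d, Atm, Atr and Fanci. In K27R the number was 4 of 34 and in R26K 0 of 34, while over all tested genes the shares were 12.7% in K27R, 0.221% in R26K and 20.98% in H3.3. Floors taken from H3.3 or K27R libraries therefore cover counting error only, since reads from amplified cDNA do not stand for separate molecules.

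**Figure D1:**
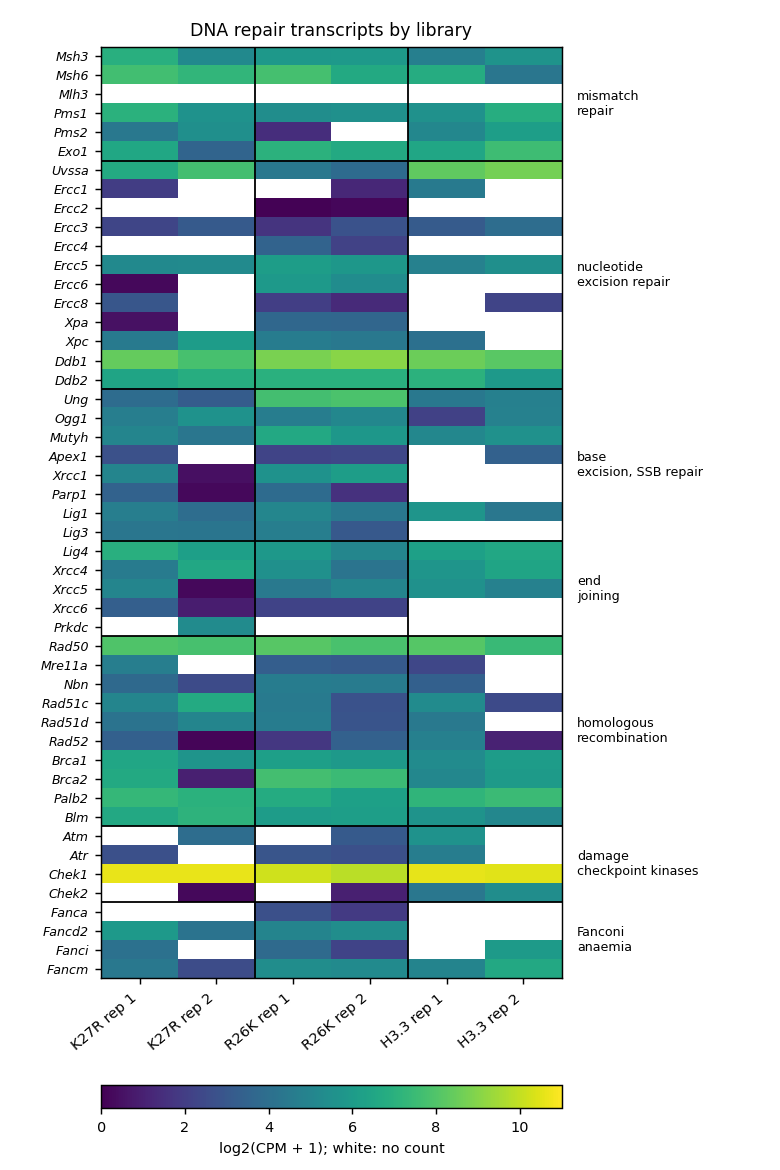
Level of each of the 49 repair genes in each library, as log2(CPM + 1), ordered by pathway with K27R left, R26K in the middle and H3.3 right; white cells had no count. White cells are most frequent in the H3.3 libraries (15 and 19 genes) and in K27R replicate 2 (12 genes).

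Between genes, levels are compared per kilobase of transcript. Chek1, the checkpoint kinase that acts below ATR, was the most abundant repair transcript at 417 CPM per kb in K27R, 280 in R26K and 396 in H3.3, at or above 99.2% of genes with a known length. Ddb1 and Ddb2, which together form the sensor of ultraviolet damage, followed at 81.8 and 69.1 CPM per kb as the mean of the 3 groups. Rad50 (46.2), the coiled-coil subunit of the break-sensing MRN complex, Ung (40.1), the uracil glycosylase, Palb2 (35.2), which links BRCA1 to BRCA2, Xrcc4 (34.7), the partner of ligase IV, and Msh6 (31.5), of the mismatch sensor, came next. The ranges over libraries of neighbours in this order overlapped, except that Chek1 lay above Ddb1 in all 6 libraries. The place of Ung rested on R26K, at 104 CPM per kb, while K27R was at 5.16 and H3.3 at 10.9. Near the low end were the apical kinases Atm (1.19) and Atr (0.862) and the single-strand break sensor Parp1 (1.10). There too were the Ku subunit Xrcc6 (0.872) and the nuclease subunit Ercc4 (0.673). Lower still were Prkdc (0.513), Fanca (0.300), Ercc2 (0.0096) and Mlh3 (0). By pathway the median over members was 14.0 CPM per kb for mismatch repair, 10.2 for end joining, 9.16 for base excision, 8.90 for recombination, 3.96 for Fanconi anaemia, 3.62 for nucleotide excision and 2.86 for the kinases, against 5.09 over all tested genes with a length. The most and least abundant members of one pathway lay further apart than these medians did: within the kinases Chek1 was at 364 CPM per kb and Atr at 0.862. The pathway medians include untested members. Over all 49 members the median was 5.13 CPM per kb, and over the 46 tested it was 7.70.

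**Figure D2:**
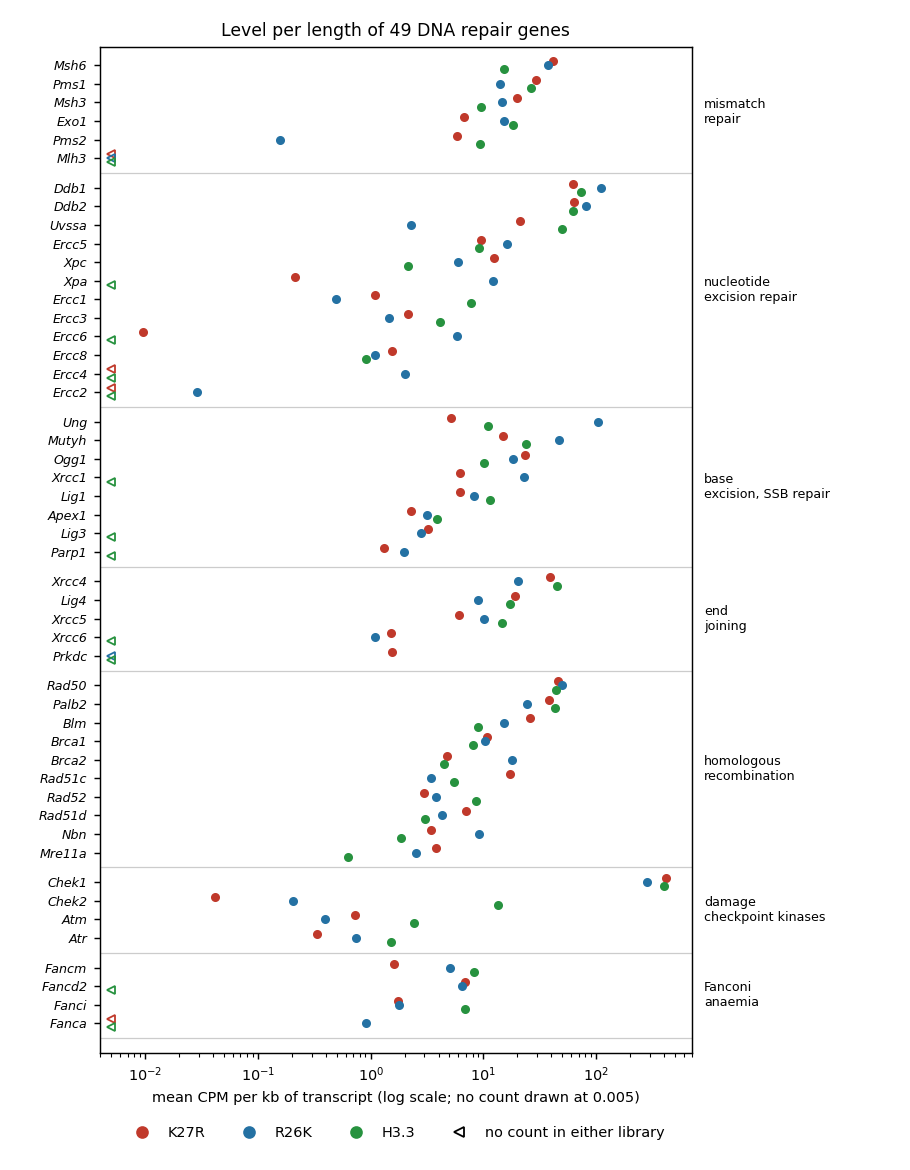
Mean level per kilobase of transcript on a log axis for each repair gene in K27R (red), R26K (blue) and H3.3 (green), ordered by level within each pathway; open triangles mark groups without a count. Chek1 stands above all others, and Uvssa, Ung, Pms2 and Chek2 show the widest gaps between groups that all have counts.

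The comparison of R26K with H3.3 asked which stored repair messages differed in eggs with the arginine 26 substitution. A single repair gene passed by edgeR, Uvssa, which stabilizes the stalled-polymerase complex of transcription-coupled nucleotide excision repair. It was at 20.3 and 13.2 CPM in R26K and at 316 and 418 CPM in H3.3, while K27R lay between with 105 and 206 CPM. The 3 groups did not overlap. The log2 fold change in R26K was -4.45 ± 0.52 (SE, 2 libraries a group, edgeR adjusted p = 0.0329), a level 21.9-fold lower, and both R26K libraries were below both H3.3 libraries. Uvssa lies on chromosome 5 from 33378549 to 33419754 on the plus strand (mm10), and its exons overlap no other annotated gene. Called lower were 1 of 46 tested members, against 0.216% of all tested genes, and called higher 0 of 46, against 0.403%. With an unadjusted p under 0.05 there were 9 members higher (17.6% of all tested genes) and 1 lower (4.14%). DESeq2 called 6 members higher (Ercc6, Ung, Xrcc1, Parp1, Lig3 and Fancd2) and 2 lower (Uvssa and Pms2) of 45 with an adjusted p, shares of 13.3% and 4.44% that were near those of all genes (13.4% and 4.64%). The fold of Uvssa held while its call did not: with only the R26K and H3.3 libraries in the fit the adjusted p was 0.0705 at -4.45, after correcting for GC content and transcript length 0.0858 at -4.39, and without H3.3 replicate 2, K27R replicate 1 or K27R replicate 2 it was 0.0606, 0.108 and 0.113.

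Around Uvssa, the other nucleotide excision genes did not move as a block. Ercc6, the remodelling ATPase that recognizes the stalled polymerase before UVSSA does, was at 58.6 and 39.7 CPM in R26K and had no count in H3.3. That is at least 203-fold higher against a floor of 3 counts per library, but the test did not pass (edgeR adjusted p = 0.164). Ercc8, the third gene of that step, was at 3.14 and 1.48 CPM in R26K and at 0 and 3.82 CPM in H3.3, which overlap. Of the damage sensors that scan the whole genome, Ddb1 was at 447 and 533 CPM in R26K against 364 and 294 CPM in H3.3, without overlap (adjusted p = 0.313). Ddb2 was at 127 and 125 CPM in R26K against 135 and 59.7 CPM in H3.3, and Xpc, the lesion binder, at 23.3 and 20.2 CPM in R26K against 15.5 and 0 CPM in H3.3. The sensors were thus present in R26K at levels near or above those in H3.3. Of the later steps, Xpa, which checks the lesion, was at 11.8 and 11.3 CPM in R26K, and Ercc4, a subunit of the nuclease that cuts on the 5′ side, at 10.49 and 3.56 CPM, both without a count in H3.3. These are at least 47.7-fold and 29.0-fold higher, with adjusted p of 0.213 and 0.215 by edgeR. Ercc5, the nuclease for the 3′ side, was at 69.1 and 56.1 CPM in R26K against 27.9 and 43.6 CPM in H3.3, and the helicase gene Ercc3 at 2.11 and 5.77 CPM against 8.04 and 14.3 CPM. Ercc1, the partner of Ercc4, had counts in 1 library of each group. Of the 11 tested genes of this pathway, R26K lay above H3.3 without overlap in 6 and below in 2, Uvssa and Ercc3, where 44.8% of all tested genes lay above and 15.3% below.

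In base excision repair the uracil glycosylase Ung had the highest fold change in R26K among members with counts in every library. Ung was at 211 and 235 CPM in R26K and at 20.2 and 26.3 CPM in H3.3, a log2 fold change of 3.26 ± 0.56 that missed the threshold (edgeR adjusted p = 0.0753). With the correction for GC content and length it was 1.02 (adjusted p = 0.304), and with a filter of 10 CPM on the mean it passed at 3.26 (0.0492). Of the other glycosylases, Mutyh, which removes adenine paired with oxidized guanine, was at 98.4 and 56.1 CPM in R26K against 32.8 and 46.1 CPM in H3.3. Ogg1, which removes oxidized guanine, was at 24.1 and 33.1 CPM in R26K against 3.37 and 27.8 CPM in H3.3. Mutyh did not overlap between the groups, nor did the next 3 genes. Of the genes that hold and seal the nicked strand, Xrcc1, the scaffold, was at 47.7 and 68.6 CPM in R26K, its partner ligase Lig3 at 25.1 and 7.34 CPM, and Parp1 at 13.4 and 1.93 CPM, all without a count in H3.3. The bounds are at least 240-fold, 67.0-fold and 31.7-fold higher, with edgeR adjusted p of 0.194, 0.189 and 0.233. Apex1, the abasic site nuclease, was at 3.80 and 4.08 CPM in R26K against 0 and 9.67 CPM in H3.3, and Lig1, the replicative ligase, at 31.7 and 20.4 CPM against 52.9 and 19.4 CPM. Of the 8 genes, R26K lay above H3.3 without overlap in 5 and below in none, against the same 44.8% and 15.3%. The exons of Lig3 share 1826 bases with those of Rffl on the other strand, and since the counting may not have used strand, the level of Lig3 is less certain. The same limit holds for other members, among them Fanci (921 bases with Polg), Fanca (920 with Zfp276), Apex1 (877 with Pip4p1) and Ddb2 (652 with Acp2). Pms2 shares 394 bases with Gm42421 on the same strand.

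**Figure D3:**
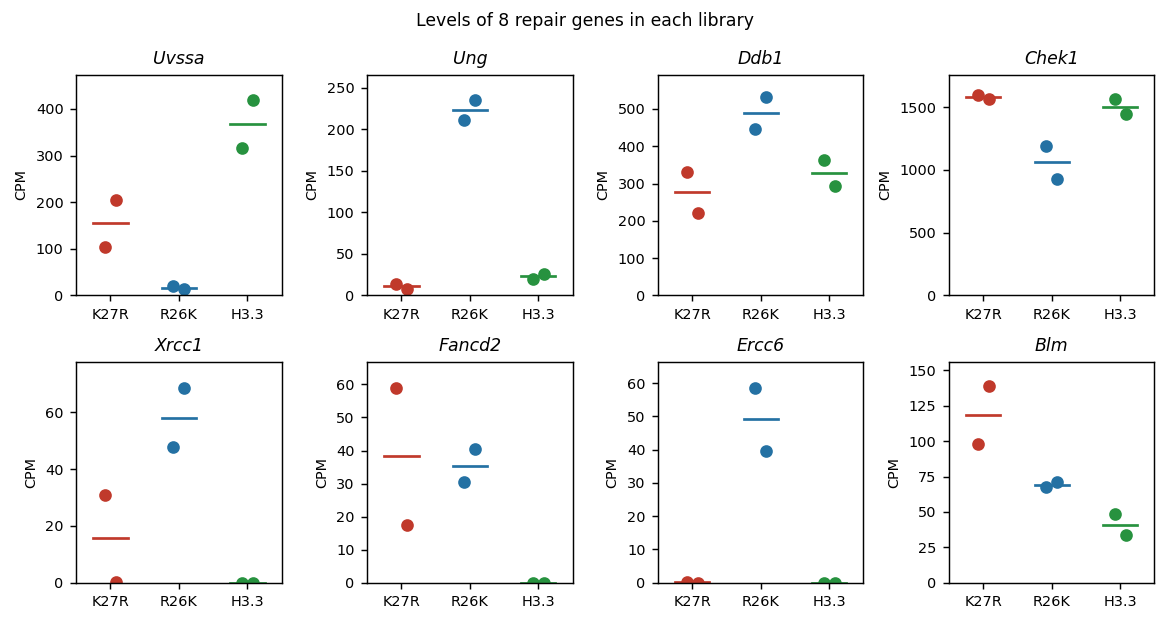
CPM of 8 repair genes in each library, with K27R left, R26K in the middle and H3.3 right; each point is a library, the line is the mean of 2 and each vertical axis starts at 0. Uvssa is lowest in R26K (20.3 and 13.2 CPM) and Ung highest there (211 and 235 CPM), while Blm is highest in K27R.

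No member of end joining or homologous recombination passed in R26K against H3.3 by edgeR or DESeq2. Other genes of these pathways are given further below. In end joining Lig4, the ligase, was at 57.7 and 32.2 CPM in R26K against 75.9 and 97.1 CPM in H3.3, and its partner Xrcc4 at 44.4 and 17.9 CPM against 52.0 and 86.1 CPM. Of the Ku genes, Xrcc5 was at 20.8 and 31.3 CPM in R26K against 46.2 and 27.7 CPM in H3.3. Xrcc6 was at 3.69 and 3.59 CPM in R26K with no count in H3.3, at least 15.0-fold higher (edgeR adjusted p = 0.213). Lig4 and Xrcc4 lay below H3.3 without overlap, and none of the 4 tested genes passed. In recombination Rad50 was nearly level at 282 and 225 CPM in R26K against 275 and 173 CPM in H3.3, while both MRN partners were less abundant than Rad50, with Mre11a at 8.81 and 7.79 CPM in R26K against 4.13 and 0 CPM in H3.3 and Nbn at 23.4 and 22.8 CPM against 9.34 and 0 CPM. Brca2, which loads the strand-exchange recombinase, was at 208 and 177 CPM in R26K against 32.98 and 62.9 CPM in H3.3 (2.01 ± 1.61, edgeR adjusted p = 0.521). Brca1 was at 74.0 and 61.6 CPM in R26K against 38.5 and 66.9 CPM in H3.3, and Palb2 at 108 and 75.5 CPM against 144 and 178 CPM. So Brca2 lay above and Palb2 below H3.3 without overlap, and Brca1 overlapped. Blm, the helicase that dissolves crossed strands, was at 67.5 and 71.1 CPM in R26K against 48.7 and 33.5 CPM in H3.3. The recombinase paralogues Rad51c (21.4 and 5.86 CPM in R26K, 39.0 and 4.497 CPM in H3.3) and Rad51d (23.2 and 6.28 CPM in R26K, 20.97 and 0 CPM in H3.3) and the annealing factor Rad52 (2.44 and 9.81 CPM in R26K, 26.8 and 1.10 CPM in H3.3) overlapped. Of the 10 recombination genes, R26K lay above H3.3 without overlap in 4, Mre11a, Nbn, Brca2 and Blm, and below in 1, Palb2. These shares were near those of all tested genes (44.8% and 15.3%).

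Among the mismatch genes, the kinases and the Fanconi genes edgeR made no call in R26K against H3.3, while DESeq2 called Pms2 lower and Fancd2 higher. Msh6 was at 217 and 102 CPM in R26K against 111 and 18.9 CPM in H3.3, and Msh3, its alternative in the mismatch sensor, at 56.8 and 58.4 CPM against 25.9 and 48.9 CPM. Of the nicking partners, Pms2 was at 1.74 and 0 CPM in R26K and at 32.7 and 69.7 CPM in H3.3 (-5.87 ± 2.43, adjusted p = 0.231 by edgeR and 0.00948 by DESeq2). Pms1 was at 40.9 and 45.4 CPM in R26K against 45.8 and 114 CPM in H3.3, and the exonuclease Exo1 at 134 and 101 CPM against 89.8 and 192 CPM. Pms1 and Pms2 lay below H3.3 without overlap and Msh3 above, of 5 tested mismatch genes. Over all tested genes, 15.3% lay below and 44.8% above. Chek1 was at 1193 and 930.5 CPM in R26K and at 1562 and 1449 CPM in H3.3 (-0.50 ± 0.22, edgeR adjusted p = 0.241), also without overlap. Chek2, the kinase below ATM, was at 0 and 0.936 CPM in R26K and at 19.8 and 41.1 CPM in H3.3. Its edgeR adjusted p was 0.306, and the groups did not overlap. With Chek1 this made 2 of the 4 kinases below H3.3 without overlap, and none above. Atm was at 0 and 7.79 CPM in R26K against 47.6 and 0 CPM in H3.3, and Atr at 6.56 and 5.50 CPM against 24.4 and 0 CPM. In the Fanconi pathway Fancd2, which is ubiquitinated at blocked forks, was at 30.5 and 40.4 CPM in R26K with no count in H3.3, at least 147-fold higher (adjusted p = 0.0980 by edgeR, 0.0461 by edgeR without a filter and 3.78e-07 by DESeq2). Its partner Fanci was at 12.9 and 3.65 CPM in R26K against 0 and 63.6 CPM in H3.3, which overlap. Fanca, of the ubiquitin ligase core, was at 5.39 and 2.69 CPM in R26K with no count in H3.3 (at least 16.7-fold), and Fancm, which recognizes the fork, at 40.4 and 37.9 CPM against 30.2 and 97.9 CPM.

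Over the 46 tested repair genes, R26K lay above H3.3 without overlap in 19, where 44.8% of all tested genes did, and below in 9, where 15.3% did. As shares of the members these were 41.3% and 19.6%, near the background. The median log2 fold change was 0.37, against 0.66 over all tested genes and 0.08 over the 6142 tested genes of at least 10 CPM. With groups at 0 set to their bounds, the pathway medians were 2.12 for base excision, 1.68 for Fanconi anaemia, 0.58 for nucleotide excision, 0.43 for recombination, -0.26 for mismatch repair, -0.72 for end joining and -1.81 for the kinases. Without the bounds the Fanconi median was 4.30. Pathways of 4 to 11 tested genes give rough medians, and no pathway was tested as a set. Summed over its 8 genes, base excision repair was at 455 and 426 CPM in R26K and at 109 and 129 CPM in H3.3, with K27R at 160 and 107 CPM. Summed end joining was at 127 and 85.0 CPM in R26K and at 174 and 211 CPM in H3.3, with K27R at 183 and 210 CPM. Both R26K libraries were above the other 4 in base excision and below them in end joining. Ung alone gave 211 and 235 CPM of the base excision sum in R26K, and 20.2 and 26.3 CPM in H3.3. Without Ung the R26K sums were still above the others, by less. Neither these sums nor the medians were corrected for GC content or transcript length. With that correction the log2 fold change of Ung went from 3.26 to 1.02. All 49 genes together summed to 3913 and 3321 CPM in R26K and 3800 and 3789 CPM in H3.3, so the total overlapped. Chek1 alone made up 30.5% and 28.0% of that sum in R26K and 41.1% and 38.2% in H3.3.

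**Figure D4:**
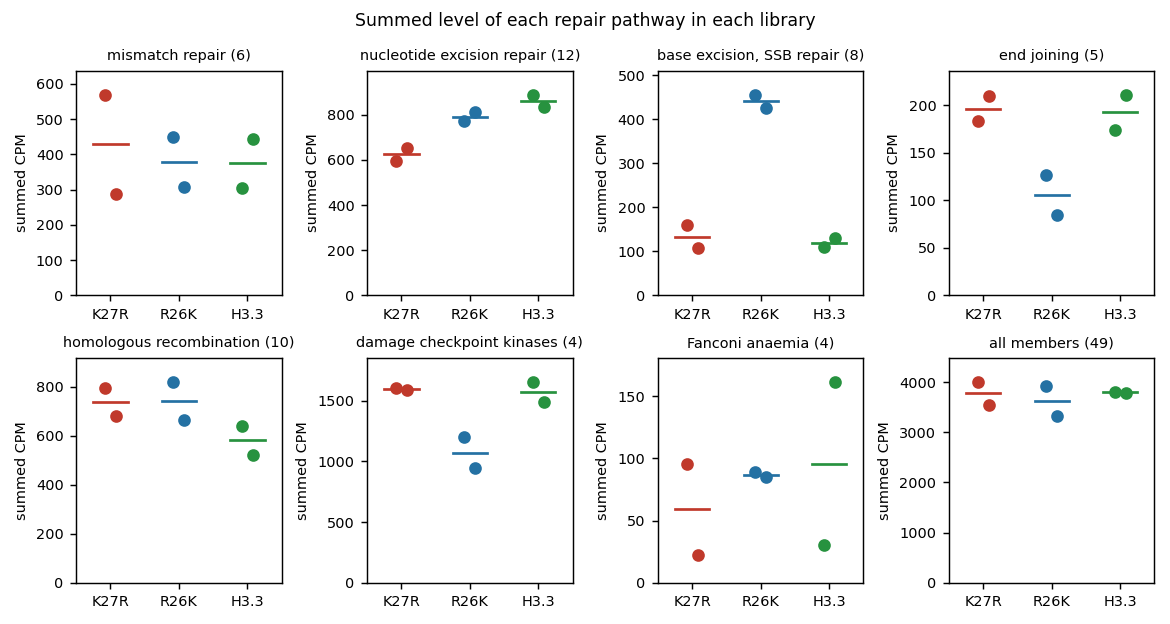
Summed CPM of each repair pathway and of all 49 genes in each library, with K27R left, R26K in the middle and H3.3 right; points are libraries, lines are means of 2 and the number of genes is in brackets. Base excision repair is highest in R26K (455 and 426 CPM, of which Ung 211 and 235 CPM) and end joining lowest there (127 and 85.0 CPM).

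The comparison of K27R with H3.3 shares its H3.3 libraries with the one above, and no repair gene passed in it by edgeR. There, 0 of 46 members were called in either direction, where the share of all tested genes was also 0.0%. With an unadjusted p under 0.05 there were 5 members higher (6.05% of all tested genes) and 1 lower (1.07%), and DESeq2 called 3 higher (Xrcc1, Lig3 and Fancd2; 6.82%, all genes 6.06%) and 1 lower (Chek2; 2.27%, all genes 1.74%) of 44 with an adjusted p. The member that was lower by unadjusted p was again Uvssa, at 105 and 206 CPM in K27R against 316 and 418 CPM in H3.3 (-1.24 ± 0.46, edgeR adjusted p = 0.522). Ung was at 13.9 and 8.16 CPM in K27R against 20.2 and 26.3 CPM in H3.3 (-1.07 ± 0.52, adjusted p = 0.522), below H3.3 where R26K was above. Blm was at 98.3 and 139 CPM in K27R against 48.7 and 33.5 CPM in H3.3 (1.53 ± 0.55, edgeR adjusted p = 0.522), without overlap. Several genes without a count in H3.3 had counts in K27R. Fancd2 was at 58.9 and 17.5 CPM and Lig3 at 18.8 and 18.3 CPM in K27R, at least 158-fold and 76.6-fold above the H3.3 floor. Xrcc1 was at 31.1 and 0.380 CPM, Parp1 at 9.999 and 0.190 CPM, and Xrcc6 at 9.10 and 0.854 CPM in K27R, so most of their counts came from 1 library. Chek2 had 2 counts in K27R and 743 in H3.3, a level 341-fold lower (94.2 to 2824 by counting error alone, 95%). Replicate spread is not part of that range, and the edgeR test did not pass (adjusted p = 0.522). Ercc4 and Fanca had no count in either group, and for Ercc6 and Xpa the few K27R counts were within the floor.

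Other members varied between the K27R libraries. Brca2 was at 102 and 0.949 CPM, Xrcc5 at 30.9 and 0.190 CPM, Rad52 at 9.51 and 0.0949 CPM and Exo1 at 94.0 and 10.6 CPM in K27R replicates 1 and 2, while H3.3 had 32.98 and 62.9, 46.2 and 27.7, 26.8 and 1.10, and 89.8 and 192 CPM. Of 34 members that reached 10 CPM in a K27R library, 9 differed at least 4-fold between the replicates on the log2(CPM + 1) scale (26.5%), as did 28.4% of all tested genes. In R26K 1 of 34 did and in H3.3 10 of 33. The steady members in K27R were Chek1 (1597 and 1569 CPM in K27R against 1562 and 1449 CPM in H3.3), Rad50 (252 and 221 against 275 and 173 CPM), Palb2 (157 and 128 against 144 and 178 CPM) and Ercc5 (36.7 and 38.0 against 27.9 and 43.6 CPM). Summed nucleotide excision repair was at 596 and 652 CPM in K27R against 888 and 834 CPM in H3.3, and recombination at 795 and 681 CPM in K27R against 640 and 520 CPM in H3.3. Neither sum overlapped, but each gap depended on single genes. Uvssa alone gave 105 and 206 CPM of the nucleotide excision sum in K27R, and 316 and 418 CPM in H3.3. Without Uvssa the nucleotide excision sums overlapped, and without Blm the recombination sums did. The median log2 fold change over the tested members was 0.07 in K27R, or 0.02 with bounds, against 0.12 over all tested genes. K27R lay above H3.3 without overlap in 9 members (19.6%, background 15.9%) and below in 6 of 46 (background 9.62%).

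The comparison of K27R with R26K tests whether the 2 substitutions differed from each other. No repair gene passed by edgeR in either direction, where 0.169% of all tested genes were called higher and 0.206% lower. By unadjusted p under 0.05, 2 members were higher in K27R (3.43% of all tested genes) and 5 lower (9.82%), and DESeq2 called 2 higher (Uvssa and Pms2; 4.55%, all genes 2.81%) and 2 lower (Ung and Ercc6; 4.55%, all genes 5.77%) of 44. Ung and Uvssa came nearest. Ung was at 13.9 and 8.16 CPM in K27R against 211 and 235 CPM in R26K (-4.34 ± 0.59, edgeR adjusted p = 0.0560), and Uvssa at 105 and 206 CPM against 20.3 and 13.2 CPM (3.21 ± 0.49, adjusted p = 0.0725). Both passed with a filter of 10 CPM (edgeR adjusted p = 0.0399 for Ung and 0.0480 for Uvssa) and without a filter (0.0274 and 0.0215). With the correction for GC content and length the log2 fold change of Ung was -2.44 (0.195) and that of Uvssa 3.29 (0.185). Ung also passed without H3.3 replicate 1 or 2 (0.0375 and 0.0379), and Uvssa without R26K replicate 1 or 2 (0.00256 and 0.0227). Ddb1 was at 332 and 220 CPM in K27R against 447 and 533 CPM in R26K (-0.83 ± 0.31, adjusted p = 0.346 by edgeR), and its direction changed with the GC and length correction (0.03). Chek1 was at 1597 and 1569 CPM in K27R against 1193 and 930.5 CPM in R26K (0.58 ± 0.22, adjusted p = 0.346 by edgeR). Ercc6 had 2 counts in K27R and 3475 in R26K, a level 567-fold lower (157 to 4683 by counting error alone, 95%). Differences between replicates do not enter this range, and edgeR did not call the gene (adjusted p = 0.335). Ercc4 and Fanca, without a count in K27R, were at least 26.6-fold and 15.3-fold lower there. K27R lay above R26K without overlap in 8 members (17.4%, background 17.5%) and below in 15 (32.6%, background 36.3%).

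**Figure D5:**
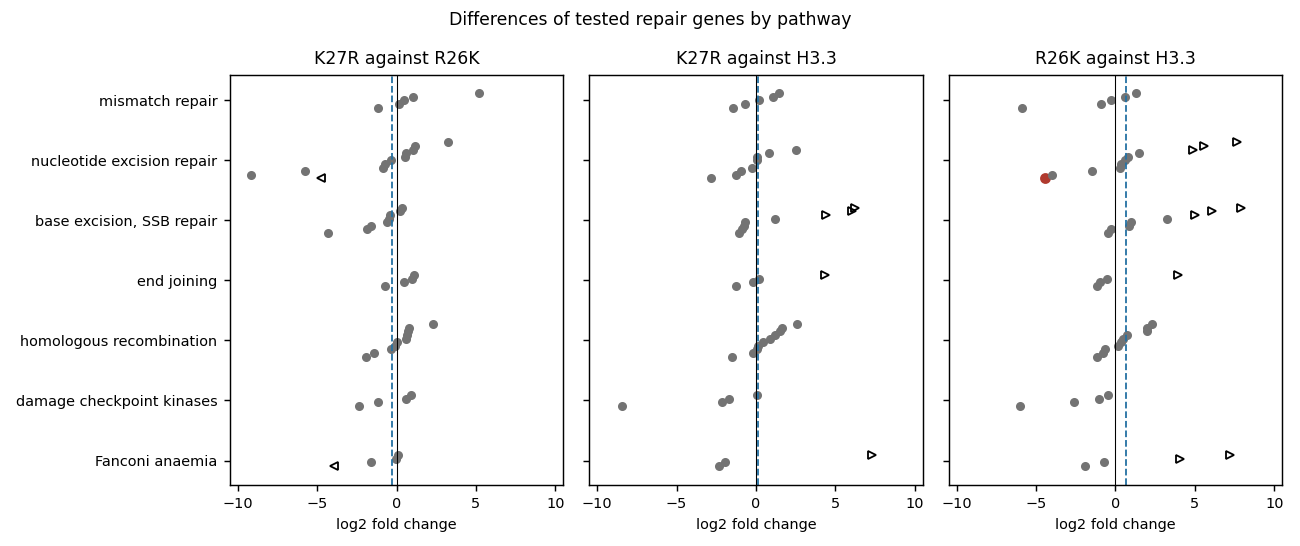
Log2 fold change of the tested repair genes by pathway in the 3 comparisons (left, K27R against R26K; middle, K27R against H3.3; right, R26K against H3.3). Filled circles are fitted values, or ratios of counts where a group had 1 to 3 counts, red marks an edgeR adjusted p under 0.05, open triangles are bounds against a floor of 3 counts per library, and the dashed line is the median of all tested genes; 4 members without a fold in K27R against H3.3 are left out. Uvssa in R26K against H3.3 is the 1 red point.

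Other genes of these pathways were read from a list of 109 further repair genes, of which 106 were in the table and 92 were tested. In R26K against H3.3, edgeR called 1 of the 92 higher and 0 lower (0.403% and 0.216% of all tested genes), with 10 and 5 at an unadjusted p under 0.05 (17.6% and 4.14%). DESeq2 called 11 higher and 4 lower of 86 with an adjusted p (12.8% and 4.65%, against 13.4% and 4.64% of all genes). The called gene was Mad2l2, a subunit of the translesion polymerase zeta and of the shieldin complex, at 82.1 and 73.0 CPM in R26K, with no count in H3.3 and 51.7 and 38.9 CPM in K27R. This is at least 320-fold higher in R26K against the floor (edgeR adjusted p = 0.0448), and the call was lost in 7 of 16 other settings, where adjusted p reached 0.142. In K27R against H3.3 and in K27R against R26K, edgeR called 0 of the 92, with 6 and 5 higher (6.05% and 3.43% of all tested genes) and 0 and 2 lower (1.07% and 9.82%) at an unadjusted p under 0.05. DESeq2 called 5 and 2 of 86 higher (5.81% and 2.33%, all genes 6.06% and 2.81%). It called 2 and 4 lower (2.33% and 4.65%, all genes 1.74% and 5.77%). The smallest p there belonged to Mad2l2 in the first (edgeR adjusted p = 0.522). In the second it belonged to Cdk7, the kinase of the transcription factor TFIIH that nucleotide excision repair also uses, at 197 and 234 CPM in K27R against 77.8 and 92.6 CPM in R26K (1.34 ± 0.31, edgeR adjusted p = 0.188), with 299 and 344 CPM in H3.3. The median log2 fold changes of the 92 were 0.64 in R26K against H3.3, 0.23 in K27R against H3.3 and -0.42 in K27R against R26K, against 0.66, 0.12 and -0.32 over all tested genes.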

How the data were processed

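Polyadenylated RNA of 6 egg libraries was sequenced as 50-base single reads. The submitters' processing notes name featureCounts, SAMtools 1.3, TopHat2 2.1.0 and cutadapt 1.9.1, with the build mm10, while the annotation and the strand setting are not given. The authors deposited raw counts, whole numbers for each gene symbol. From these, CPM with TMM scaling was computed, and edgeR 4.0.16 (R 4.3.3; filterByExpr, glmQLFit, glmQLFTest, two-sided) was fitted to all 6 libraries with 3 group means (3 residual degrees of freedom, 10667 genes tested, Benjamini-Hochberg adjustment over all of them, threshold 0.05). The SE is the absolute log2 fold change over the square root of F. Lengths, GC content and exon overlaps came from GENCODE M21, which matched 22750 of 24062 symbols and all 49 members. Exons of 24 members overlap another gene, and no other gene aligned to a member at 95% identity over 200 bases. Fold bounds use 3 counts per library; intervals are exact binomial (95%). Alternatives included DESeq2 1.42.0. The fits were tested on simulated data, with a pass mark set only at a dispersion lower than that of these data.

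The members and lists were chosen with earlier results of these data known. Values in every library were to be given for members with an adjusted or unadjusted p under 0.05 in any comparison and the 2 most abundant of each pathway; most others are given too. Of other repair genes, called ones are named, or the 1 with the smallest p.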

Additional observations from a re-analysis of the deposited data

How the results depend on the processing

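Over 16 other settings, Uvssa in R26K against H3.3 kept its direction (-4.82 to -4.18) and lost its call in 5. Members called higher and lower there were 0 and 1; DESeq2 gave 6 and 2, no filter 1 higher, a filter of 10 CPM 1 higher, and the fit of 2 groups and the GC and length correction 0 lower; leaving out a library gave 0 higher and 0 to 1 lower. Over all genes, 43 and 23 became 1212 and 418 (DESeq2), 178 and 63 (no filter), 115 and 42 (10 CPM), 0 and 0 (2 groups), 4 and 13 (GC and length) and 1 to 147 and 0 to 56 without a library. In K27R against H3.3, DESeq2 gave 3 and 1 members and 534 and 153 genes; leaving out a library gave 0 members and 0 to 5 genes higher. In K27R against R26K, members were 2 and 2 (DESeq2), 1 and 1 (no filter), 1 and 1 (10 CPM) and 0 to 1 each way without a library; genes, 18 and 22, became 247 and 508, 56 and 100, 37 and 58, 7 higher (2 groups), 1 and 1 (GC and length) and 0 to 52 and 0 to 95. The log2 fold change of Ddb1 there, -0.83, became 0.028 with the GC and length correction. The causes were not tested.

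The replicate numbers did not pair the libraries: deviations of same-numbered libraries correlated across 10667 genes at -0.0086 to 0.021. With the replicate block, calls over all genes were 195 and 65 in R26K against H3.3 and 61 and 134 in K27R against R26K, and members 1 higher (Uvssa, edgeR adjusted p = 0.0132) and 1 lower (Ung, 0.0199) in K27R against R26K; no other member's call changed. Upper-quartile scaling moved the median of all tested genes by -0.20 in R26K against H3.3 and 0.22 in K27R against R26K. No alternative changed the number of detected members by over 1.5 times. The spread between libraries was wide (common dispersion 1.63), and 3 residual degrees of freedom limit these tests.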

Other observations

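Some repair genes outside the 49 stood out by level or by difference, and were chosen after their values were seen. Neil3, a glycosylase of oxidized bases in single-stranded DNA, was at 714 and 780 CPM in K27R, 419 and 397 CPM in R26K, and 567 and 759 CPM in H3.3. DESeq2 called it lower in R26K against H3.3 (adjusted p = 0.0385), and edgeR did not (0.213). Trp53bp1, which favours end joining at breaks, was at 611 and 469 CPM in K27R, 759 and 743 CPM in R26K, and 338 and 337 CPM in H3.3, with adjusted p of 0.113 by edgeR and 0.000652 by DESeq2 for R26K against H3.3. Usp1, the enzyme that removes ubiquitin from FANCD2, was at 34.5 and 17.9 CPM in K27R, 179 and 198 CPM in R26K, and 35.4 and 10.2 CPM in H3.3, and edgeR called it in no comparison. DESeq2 called it higher in R26K against H3.3 (adjusted p = 0.00293) and lower in K27R against R26K (0.00867). H2afx, the histone variant phosphorylated at breaks, was at 63.4 and 42.3 CPM in R26K, had 0.163 CPM in 1 K27R library, and had no count in the other 3 libraries. For R26K against H3.3 the adjusted p was 0.157 by edgeR and 4.72e-06 by DESeq2.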
